A study of Homo sapiens with 15 samples.

Results

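The genes described here are 10 components and transcriptional readouts of the YAP and TEAD axis in pancreatic ductal adenocarcinoma cells in which a glycosyltransferase was knocked down. They are the coactivators YAP1 and WWTR1 (which encodes TAZ), the DNA-binding factor TEAD1, the targets CCN1, CCN2, ANKRD1 and AXL, and the regulators AMOTL2, AJUBA and LATS2. They were taken by symbol from a table of 25503 genes, and all 10 were found. The rule that takes them uses no measured value, but the set was proposed with earlier results of these data known. Bulk RNA sequencing was deposited as FPKM, fragments scaled by transcript length and by the size of the library, for 15 libraries in 5 groups of 3. Both lines are established: AsPC-1 was grown from the ascites of a pancreatic adenocarcinoma, and Capan-1 from a liver metastasis of one. In AsPC-1 the groups were a negative-control siRNA (siNC), knockdown of B4GALT5 by siRNA (siB4GALT5) and knockdown of B3GNT3 by siRNA (siB3GNT3). Capan-1 cells received siNC or siB3GNT3, so B4GALT5 knockdown was measured in AsPC-1 alone. No allele, dose or time after transfection was given, and the cell line field of the second line reads Capable-1 where the titles read Capan-1. B4GALT5 is a galactosyltransferase that makes lactosylceramide, and B3GNT3 is an N-acetylglucosaminyltransferase that extends O-linked and other glycans. As the series title states the question, the study addressed MHC class I on tumour cells, and the YAP and TEAD genes are an additional readout of the same libraries.

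YAP and TAZ are coactivators without a DNA-binding domain of their own, and they act mainly through TEAD factors bound near promoters and at enhancers. In the Hippo pathway the kinases STK3 and STK4, with the scaffold SAV1, activate LATS1 and LATS2, which phosphorylate YAP and TAZ and hold them in the cytoplasm. Cell density, matrix stiffness, actin tension and attachment change this balance, and in pancreatic cancer YAP is known for its part in growth, dedifferentiation and the stromal response. Messenger RNA levels of these genes do not measure phosphorylation or the location of YAP.

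The targeted genes were checked first. B3GNT3 stood at 22.5, 23.8 and 23.3 FPKM in AsPC-1 siNC and at 2.53 and 2.50 FPKM in siB3GNT3 replicates 1 and 2, but the library labelled AsPC-1 siB3GNT3 replicate 3 had 24.2 FPKM. In Capan-1 it was 13.2 to 13.7 FPKM with siNC and 1.32 to 1.84 FPKM with siB3GNT3. B4GALT5 was 35.5 to 38.7 FPKM in AsPC-1 siNC and 8.03 to 8.70 FPKM in siB4GALT5, in which B3GNT3 was 27.9 to 32.4 FPKM. The library labelled AsPC-1 siB3GNT3 replicate 3 was therefore set apart. It was nearer to the siNC mean than to the mean of replicates 1 and 2 for 8 of the 10 genes, the exceptions being TEAD1 and CCN1. Distances between libraries (root mean square on the log2(FPKM + 1) scale) used genes with at least 1 FPKM in at least 3 of the 15 libraries. The distance of the set-apart library from siNC libraries (0.141 to 0.150) was like that among siNC libraries (0.144 to 0.146). It was under that from its own group (0.453 to 0.465). Setting this library apart keeps the libraries whose target is low, so the p-values below describe these libraries. The genes' siB3GNT3 results in AsPC-1 are also given with all libraries as labelled. The labels do not say that replicates are separate cultures, so p-values measure only the spread between these libraries. Depth is unknown because only FPKM were used.

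Epithelial markers (EPCAM, CDH1, KRT8, KRT18 and KRT19) summed to 2022 to 2077 FPKM in AsPC-1 siNC. With siB4GALT5 they summed to 1933 to 1949 FPKM, and in siB3GNT3 replicates 1 and 2 to 1641 and 1650. All these knockdown sums lay below every siNC library. The set-apart library summed to 2051 FPKM. In Capan-1 they summed to 4704 to 4932 FPKM with siNC and 2980 to 3848 with siB3GNT3, again with no overlap. Single markers went both ways. In AsPC-1 mean KRT8 and KRT19 were lower with each knockdown than with siNC, while mean EPCAM and KRT18 were higher. In Capan-1 mean CDH1 was higher with siB3GNT3 (23.8 against 17.8 FPKM) and the other 4 were lower. CDH1, which encodes E-cadherin, averaged 0.210 FPKM in AsPC-1 siNC against 17.8 FPKM in Capan-1 siNC. Of 6 fibroblast markers 1 reached 1 FPKM in AsPC-1 (LUM, mean 85.6 FPKM in siNC) and 2 or 3 did in Capan-1, where COL1A1 averaged 50.0 FPKM in siNC. Of 5 leukocyte markers CD68 alone reached 1 FPKM, and the 4 endothelial markers summed to 1.68 FPKM at most. The share of FPKM in mRNAs encoded by mitochondria was 23.8 to 24.8% in AsPC-1 siNC, 18.1 to 19.5% with siB4GALT5, 19.7 and 20.1% in siB3GNT3 replicates 1 and 2, and 13.6 to 14.8% in Capan-1. The part of these differences in the results below was not tested, and in bulk RNA fewer cells of a kind cannot be told apart from less RNA per cell.

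Differences below are log2 differences of FPKM + 1 from limma, followed by the standard error and by the p adjusted by Benjamini-Hochberg over all genes of the fit, and a gene was called at an adjusted p under 0.05. Genes had to reach 1 FPKM in at least 3 libraries of a fit. All 10 genes passed in Capan-1, and 9 passed in AsPC-1, where ANKRD1 did not.

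With siNC, the control state of both lines, CCN1, CCN2 and AXL were higher in Capan-1 than in AsPC-1, and the factors differed by less. ANKRD1 was also higher, as a description without a test. Genes known as YAP targets did not all go this way. LATS2 was slightly lower, and of 13 other listed targets that reached 1 FPKM in both lines 6 were higher and 7 lower. YAP1, the main coactivator, stood at 28.5, 28.98 and 29.3 FPKM in AsPC-1 and at 29.8, 33.1 and 32.0 FPKM in Capan-1. These groups did not overlap but lay close together (0.12, SE 0.04, adjusted p = 0.0264, limma), and the call was lost in 5 of 14 alternatives that asked for no minimum fold, with adjusted p up to 0.114. WWTR1 stood at 20.2, 19.1 and 18.6 FPKM in AsPC-1 and at 39.3, 43.8 and 43.4 FPKM in Capan-1, a ratio of mean FPKM of 2.19 (log2 difference 1.09, adjusted p = 2.02e-08). TEAD1 was the other way round, with 22.4, 20.7 and 20.9 FPKM in AsPC-1 against 14.7, 15.6 and 14.7 FPKM in Capan-1 (log2 difference -0.48, adjusted p = 5.02e-06). So WWTR1 exceeded YAP1 in level in Capan-1 and lay under it in AsPC-1.

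Among the targets, CCN1, which encodes the matricellular protein CYR61, was 14.7, 14.3 and 13.0 FPKM in AsPC-1 and 109, 106 and 125 FPKM in Capan-1. Its relative CCN2 (CTGF) was 6.96, 6.37 and 5.61 FPKM in AsPC-1 and 34.6, 32.9 and 35.3 FPKM in Capan-1. The ratios of mean FPKM were 8.10 for CCN1 (log2 difference 2.93, adjusted p = 9.87e-11) and 5.42 for CCN2 (log2 difference 2.27, adjusted p = 6.5e-10). ANKRD1, a nuclear and sarcomeric ankyrin-repeat protein whose gene is a common YAP reporter, was listed at 0, 0.0143 and 0.211 FPKM in AsPC-1 and at 212, 214 and 242 FPKM in Capan-1. That made ANKRD1 the highest of the 10 genes in Capan-1 siNC and the lowest in AsPC-1 siNC, with a difference of 7.70 on the log2(FPKM + 1) scale, which is no bound on the fold. ANKRD1 passed the filter through Capan-1 alone, so its difference is given as a description, with no test. AXL, a receptor tyrosine kinase for GAS6, stood at 41.4, 37.9 and 38.2 FPKM in AsPC-1 and at 147, 159 and 158 FPKM in Capan-1, a ratio of 3.95 (log2 difference 1.95, adjusted p = 1.41e-10).

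The regulators differed less. AMOTL2, an angiomotin family scaffold that binds YAP, was 20.3 to 22.6 FPKM in AsPC-1 and 29.5 to 31.4 FPKM in Capan-1 (0.50, adjusted p = 4.07e-06). AJUBA, a LIM protein that restrains LATS kinases, was 17.6 to 18.9 FPKM in AsPC-1 and 31.5 to 33.1 FPKM in Capan-1 (0.81, adjusted p = 4.56e-08). LATS2, the kinase that inhibits YAP and is itself a YAP target, was 3.61 to 3.80 FPKM in AsPC-1 and 2.98 to 3.41 FPKM in Capan-1. Its difference of -0.16 (adjusted p = 0.0337) lost its call in 8 alternatives that asked for no minimum fold, with adjusted p up to 0.63 after rescaling to a common sum. Of the 9 genes other than ANKRD1 7 were higher in Capan-1 and 2 lower, with a median difference of 0.81. Among the 10020 genes that reached 1 FPKM in both lines 4246 were higher and 4009 lower, with a median of 0.02. Over all genes tested 47% were higher and 37.9% lower, with a median of 0.09. A call by itself was thus common in this comparison, and line and any batch of a line cannot be told apart. Rescaling to a common sum moved the median of all genes to 0.23.

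**Figure D1:**
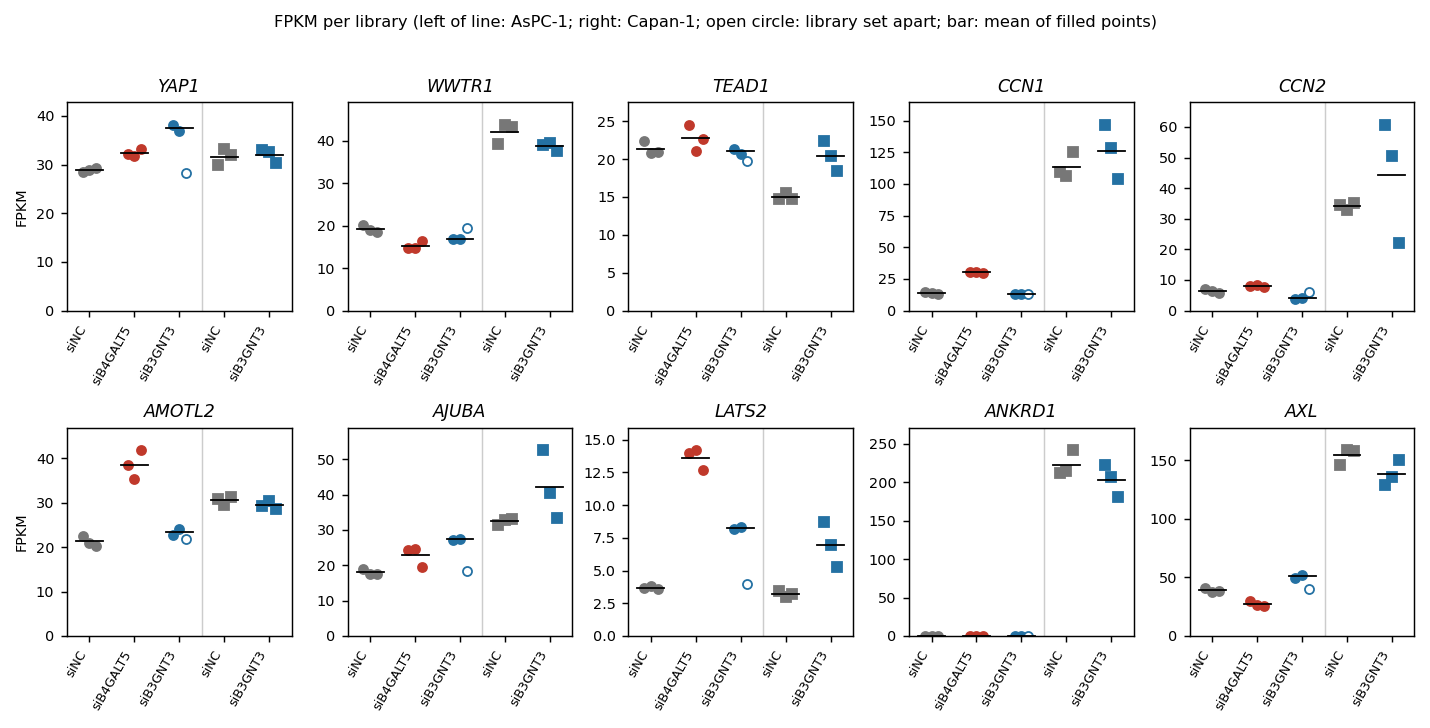
FPKM of each gene in the 15 libraries, 1 panel per gene on a linear axis from 0 and 1 point per library, by group, with a bar at the mean of the filled points. ANKRD1 lies near 0 in AsPC-1 and at 180 to 242 FPKM in Capan-1, and the library labelled AsPC-1 siB3GNT3 replicate 3, drawn as an open symbol, sits beside siNC for LATS2, at 3.94 FPKM.

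The sequence around the start sites is shown because the targets differ in how many copies they hold of GGAATG, the 6-base core bound by TEAD factors, known from muscle genes as MCAT in the reverse orientation (CATTCC). RefSeq windows on GRCh38.p14, 250 bases before to 50 after a start, were in the table used for 8 of the 10 genes, in 12 windows. TEAD1 and CCN1 had no window there and were not searched. GGAATG on either strand was found in 7 of these 12 windows (58.3%), 1 in each of 7 genes, against 4928 of 35116 windows of all genes (14.03%). WWTR1 was the gene with a window and no match, which says only that these letters are not in that window. Each stretch is printed on the gene's strand with the match in capitals.
CCN2, chr6:131951447-131951556, minus strand: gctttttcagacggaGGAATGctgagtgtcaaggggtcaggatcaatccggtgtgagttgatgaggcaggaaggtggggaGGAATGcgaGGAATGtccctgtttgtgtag
ANKRD1, chr10:90921195-90921322, minus strand: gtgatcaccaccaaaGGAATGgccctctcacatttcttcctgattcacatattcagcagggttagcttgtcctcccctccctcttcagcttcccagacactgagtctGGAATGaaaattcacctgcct
LATS2, chr13:21061560-21061589, minus strand: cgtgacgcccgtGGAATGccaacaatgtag
AMOTL2, chr3:134374496-134374531, minus strand: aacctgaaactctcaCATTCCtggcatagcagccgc
AJUBA, chr14:22976881-22976916, minus strand: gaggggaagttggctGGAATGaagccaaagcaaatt
AXL, chr19:41226528-41226563, plus strand: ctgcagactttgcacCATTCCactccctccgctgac
YAP1, chr11:102110270-102110305, plus strand: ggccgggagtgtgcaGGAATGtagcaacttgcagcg

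The CCN2 window held 3 matches, at -169, -104 and -95 from the start, where 45 of all 35116 windows (0.128%) held 3 or more. ANKRD1 held 2, at -220 and -128, and 482 of all windows (1.37%) held 2 or more. LATS2 had its match at +10, just past the start, and YAP1 at -162. For AMOTL2 (-69), AJUBA (-59) and AXL (-212) the match lay by the second of their listed starts. In the results below CCN2 moved in opposite directions in the AsPC-1 knockdowns, and LATS2 was higher in each knockdown. No binding was measured, so a match is a description of sequence.

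**Figure D2:**
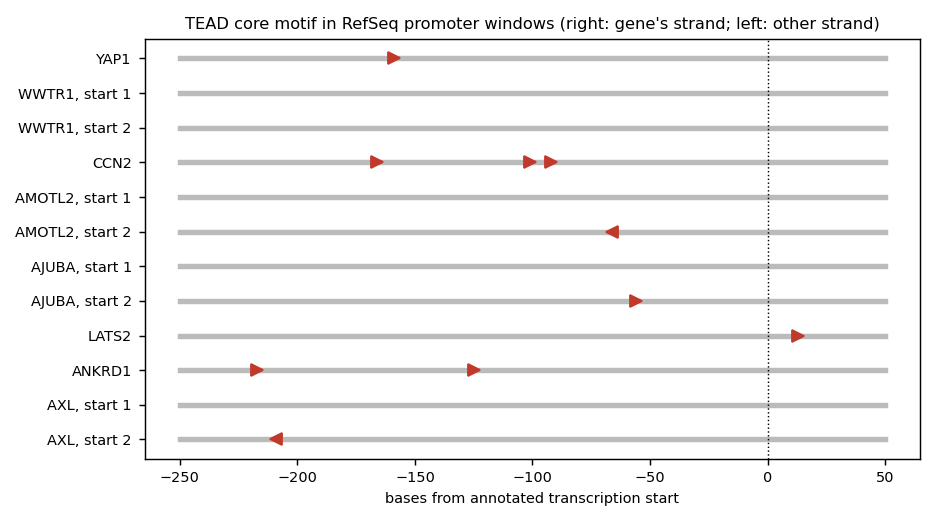
Positions of GGAATG, on either strand, in the RefSeq start-site windows of the 8 genes, as distance in bases from the start, with 1 line per window. TEAD1 and CCN1 had no window and are not drawn. CCN2 holds 3 matches between -169 and -95 and ANKRD1 holds 2, while the other windows hold 1 or none.

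The genes lie on GRCh38.p14 as annotated by RefSeq at chr11:102110447-102233424 (YAP1, plus strand), chr3:149517235-149724788 (WWTR1, minus), chr11:12674421-12944737 (TEAD1, plus), chr1:85580761-85583950 (CCN1, plus) and chr6:131948176-131951372 (CCN2, minus). The others are at chr3:134355345-134375417 (AMOTL2, minus), chr14:22971177-22982551 (AJUBA, minus), chr13:20973036-21061586 (LATS2, minus), chr10:90912096-90921087 (ANKRD1, minus) and chr19:41219223-41261766 (AXL, plus). Exons of YAP1, WWTR1, CCN2 and AXL overlap an antisense transcript in GENCODE 29, and those of AMOTL2 and AJUBA overlap a gene on the same strand. Whether counting used strand is not given, so reads of such neighbours cannot be told apart.

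In AsPC-1 the factors themselves moved little. YAP1 stood at 32.2, 31.7 and 33.1 FPKM with siB4GALT5 and at 38.2 and 37.0 FPKM with siB3GNT3, against 28.5 to 29.3 FPKM with siNC. All knockdown libraries were above all siNC libraries, and the siB3GNT3 pair was highest. The difference was 0.37 for siB3GNT3 (SE 0.05, adjusted p = 0.000338) and 0.16 for siB4GALT5 (SE 0.05, adjusted p = 0.0162, limma). The siB4GALT5 call was lost with median-ratio scaling (0.08, adjusted p = 0.141), without AsPC-1 siNC replicate 1 (adjusted p = 0.0583) and with all libraries as labelled (adjusted p = 0.259), with 0.00189 as the smallest adjusted p of its alternatives. With all libraries as labelled the siB3GNT3 difference in YAP1 was 0.23 (adjusted p = 0.182).

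WWTR1 was lower with siB4GALT5, at 14.8, 14.7 and 16.4 FPKM against 18.6 to 20.2 FPKM with siNC (-0.32, SE 0.06, adjusted p = 0.00167). With siB3GNT3 it was 16.9 FPKM in both replicates, also under every siNC library. That difference of -0.18 (SE 0.07) passed narrowly (adjusted p = 0.0472) and was lost in 11 of 17 alternatives that asked for no minimum fold, with adjusted p from 0.0117 to 0.359. TEAD1 was 24.5, 21.0 and 22.6 FPKM with siB4GALT5 and 21.3 and 20.7 FPKM with siB3GNT3, against 20.7 to 22.4 FPKM with siNC. These groups overlapped, and neither difference passed: 0.08 with siB4GALT5 (95% interval -0.06 to 0.23, adjusted p = 0.3) and -0.02 with siB3GNT3 (95% interval -0.19 to 0.14, adjusted p = 0.802). As labelled, the siB3GNT3 difference in TEAD1 was -0.05 (adjusted p = 0.652).

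The CCN genes separated both knockdowns. CCN1 stood at 30.2, 30.4 and 30.1 FPKM with siB4GALT5 and at 13.3 and 13.1 FPKM with siB3GNT3, against 14.7, 14.3 and 13.0 FPKM with siNC. All siB4GALT5 libraries were above every other AsPC-1 library, while siB3GNT3 overlapped siNC. The ratio of mean FPKM to siNC was 2.16 with siB4GALT5 (1.06, SE 0.06, adjusted p = 9.86e-07). With siB3GNT3 the difference was -0.07 (95% interval -0.22 to 0.07, adjusted p = 0.359), and it was 0.01 after rescaling to a common sum. As labelled it was -0.07 (adjusted p = 0.477).

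CCN2 moved in opposite directions. It stood at 8.05, 8.46 and 7.57 FPKM with siB4GALT5, above all siNC libraries (5.61 to 6.96 FPKM), and at 3.85 and 4.24 FPKM with siB3GNT3, below all of them. The differences from siNC were 0.31 (SE 0.08, adjusted p = 0.00988) and -0.53 (SE 0.09, adjusted p = 0.00104). With all libraries as labelled neither passed, with adjusted p = 0.111 and 0.168. AXL also moved in opposite directions, but the other way round. It stood at 29.8, 26.3 and 25.8 FPKM with siB4GALT5 and at 49.9 and 52.2 FPKM with siB3GNT3, against 37.9 to 41.4 FPKM with siNC, with no overlap among the 3 groups. The differences were -0.51 (SE 0.07, adjusted p = 0.000174) and 0.37 (SE 0.07, adjusted p = 0.00234). As labelled, the AXL difference with siB3GNT3 was 0.26 (adjusted p = 0.169). ANKRD1 was listed at 0.226 FPKM or less in all AsPC-1 libraries and was not tested there.

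Of the regulators, LATS2 changed most. It stood at 3.70, 3.80 and 3.61 FPKM with siNC, at 13.98, 14.2 and 12.7 FPKM with siB4GALT5, and at 8.21 and 8.31 FPKM with siB3GNT3. The 3 groups did not overlap, and the ratios of mean FPKM to siNC were 3.68 (1.64, SE 0.06, adjusted p = 1.78e-07) and 2.23 (0.98, SE 0.07, adjusted p = 6.47e-06). With the library labelled AsPC-1 siB3GNT3 replicate 3 included, in which LATS2 was 3.94 FPKM, the siB3GNT3 difference was 0.68 and was not called (adjusted p = 0.168). In AMOTL2 the increase was called with siB4GALT5, at 38.5, 35.3 and 41.9 FPKM against 20.3 to 22.6 FPKM with siNC (0.83, SE 0.07, adjusted p = 1.32e-05). With siB3GNT3 AMOTL2 was 22.8 and 24.1 FPKM, just above every siNC library, and did not pass (0.13, 95% interval -0.04 to 0.31, adjusted p = 0.183), nor did it as labelled (0.10, adjusted p = 0.4). AJUBA was higher in both, at 24.2, 24.7 and 19.4 FPKM with siB4GALT5 (0.31, SE 0.09, adjusted p = 0.0108) and at 27.2 and 27.4 FPKM with siB3GNT3 (0.57, SE 0.10, adjusted p = 0.000882). As labelled, the AJUBA calls were lost, with adjusted p = 0.125 and 0.168. The siB4GALT5 differences of these genes, YAP1 and CCN2 included, are the same in that fit, whose siB4GALT5 and siNC libraries are unchanged. Its shared estimate of spread is larger, with an SE for AJUBA of 0.15 against 0.09.

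**Figure D3:**
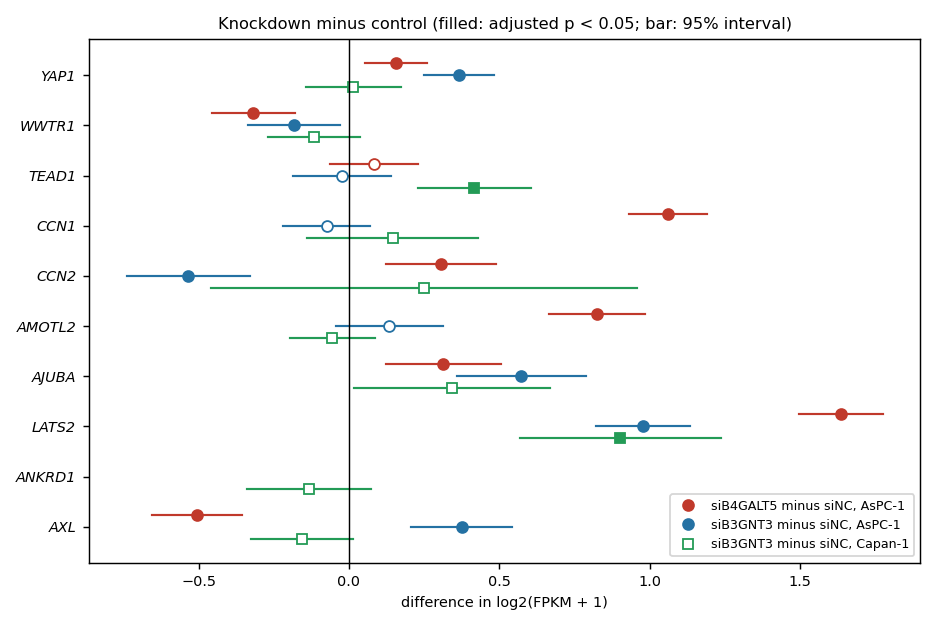
Log2 difference from siNC for each gene and its 95% interval (limma) in AsPC-1 with siB4GALT5, in AsPC-1 with siB3GNT3 (replicates 1 and 2) and in Capan-1 with siB3GNT3. LATS2 lies to the right of 0 in all of them (1.64, 0.98 and 0.90), while CCN2 and AXL lie on opposite sides of 0 in the AsPC-1 comparisons.

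With siB4GALT5 6 of the 9 tested genes were higher and 2 lower, with a median of 0.31 against 0.06 over all genes, of which 35.2% were higher and 23% lower. With siB3GNT3 in AsPC-1 4 of 9 were higher and 2 lower, with a median of 0.13 against 0.07, where 32.5% of all genes were higher and 20.4% lower. Both comparisons share the siNC libraries. Over all genes 3794 were higher and 2477 lower with siB4GALT5, and 4563 and 1890 after rescaling to a common sum. With siB3GNT3 3504 were higher and 2193 lower, against 2890 and 2762 with median-ratio scaling and 4349 and 1681 after rescaling to a common sum. With all libraries as labelled 5 of 9 were called with siB4GALT5, where 39.2% of all genes were. For siB3GNT3 limma then called 0 of 9 (0% of all genes), although 4 of the 9 and 3011 of 10804 genes had an unadjusted p under 0.05.

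The direct comparison of both knockdowns in AsPC-1 tests the difference itself. CCN1 (1.13, adjusted p = 3.82e-06), CCN2 (0.84, adjusted p = 0.000155), AMOTL2 (0.69, adjusted p = 0.000209) and LATS2 (0.66, adjusted p = 0.000131) were higher with siB4GALT5 than with siB3GNT3. AXL (-0.88, adjusted p = 3.34e-05) and YAP1 (-0.21, adjusted p = 0.012) were lower. WWTR1 (-0.14, adjusted p = 0.152), TEAD1 (0.11, adjusted p = 0.287) and AJUBA (-0.26, adjusted p = 0.0619) did not pass, although all AJUBA values with siB4GALT5 lay below both with siB3GNT3. These were 4 higher and 2 lower of 9, where 17.8% of all genes were higher and 17.4% lower. As labelled, CCN1, CCN2, AMOTL2, LATS2 and AXL were called in the same directions (1.13, 0.67, 0.72, 0.96 and -0.77), where 15.9% of all genes were, and YAP1 was not (-0.08, adjusted p = 0.646). YAP1 also lost its call without AsPC-1 siB3GNT3 replicate 1 (-0.19, adjusted p = 0.0946).

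**Figure D4:**
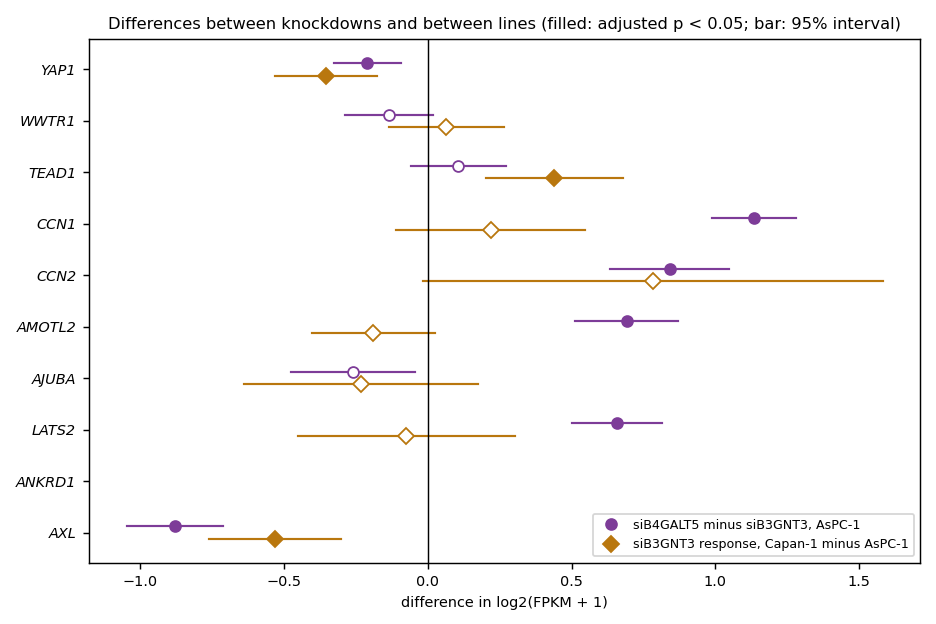
Log2 difference for each gene with its 95% interval (limma), for siB4GALT5 minus siB3GNT3 in AsPC-1 and for the siB3GNT3 response in Capan-1 minus that in AsPC-1, without ANKRD1. CCN1 (1.13) and AXL (-0.88) are farthest from 0 in the first, and the interval of CCN2 in the second runs from -0.02 to 1.58.

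In Capan-1, LATS2 and TEAD1 were higher with siB3GNT3 than with siNC. LATS2 stood at 3.41, 2.98 and 3.23 FPKM with siNC and at 8.74, 6.92 and 5.31 FPKM with siB3GNT3, a ratio of mean FPKM of 2.18 (0.90, SE 0.15, adjusted p = 0.00327). TEAD1 stood at 14.7, 15.6 and 14.7 FPKM with siNC and at 22.3, 20.4 and 18.4 FPKM with siB3GNT3, a ratio of 1.36 (0.42, SE 0.08, adjusted p = 0.00716). Neither gene's groups overlapped. YAP1 (33.0, 32.5 and 30.3 FPKM with siB3GNT3) overlapped siNC, with a difference of 0.01 (adjusted p = 0.898). WWTR1 was 39.1, 39.6 and 37.7 FPKM (-0.12, adjusted p = 0.206), and AMOTL2 was 29.3, 30.3 and 28.6 FPKM (-0.06, adjusted p = 0.514). 

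The targets spread widely among the Capan-1 knockdown libraries. CCN1 was 147, 128 and 104 FPKM and CCN2 60.8, 50.4 and 22.1 FPKM with siB3GNT3, so replicates 1 and 2 lay above all siNC libraries and replicate 3 below them. Neither passed: 0.14 for CCN1 (adjusted p = 0.394) and 0.25 for CCN2 (95% interval -0.46 to 0.96, adjusted p = 0.563). AJUBA, at 52.6, 40.5 and 33.3 FPKM, was above every siNC library and did not pass (0.34, adjusted p = 0.0974). ANKRD1 was 223, 207 and 180 FPKM (-0.13, adjusted p = 0.284) and AXL 129, 136 and 151 FPKM (-0.16, adjusted p = 0.135), and both overlapped siNC. In all, 2 of 10 genes were higher and 0 lower, with a median of 0.08 against 0.02, where 18.7% of all genes were higher and 14.2% lower.

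Capan-1 siB3GNT3 replicate 3 was the lowest of its group for 9 of the 10 genes, AXL being the exception. How often this library was lowest over all genes was not counted. By the same root mean square distance it lay 0.271 and 0.312 from replicates 2 and 1, which were 0.180 apart. From the Capan-1 siNC libraries replicate 3 lay 0.334 to 0.342, replicate 2 0.374 to 0.384 and replicate 1 0.431 to 0.439. The B3GNT3 level of replicate 3 was 1.84 FPKM against 1.32 and 1.67. Without that library, 5 of 10 genes were higher and 1 lower, where 50.4% of all genes were called. The differences were then 0.68 for CCN2 (adjusted p = 0.000127), 0.28 for CCN1 (adjusted p = 0.019), 0.50 for AJUBA (adjusted p = 0.00214), 0.48 for TEAD1 (adjusted p = 0.000262), 1.06 for LATS2 (adjusted p = 3.56e-05) and -0.22 for AXL (adjusted p = 0.0116). Over all alternatives the adjusted p ran from 0.000127 to 0.946 for CCN2 and from 3.56e-05 to 0.0255 for LATS2, whose call was lost only where a 2-fold minimum was asked.

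The response to B3GNT3 knockdown was then compared between lines by the interaction. The differences from siNC of YAP1 (-0.35, adjusted p = 0.00509) and AXL (-0.53, adjusted p = 0.00208) were lower in Capan-1 than in AsPC-1, and that of TEAD1 was higher (0.44, adjusted p = 0.00817). LATS2 did not differ detectably (-0.07, 95% interval -0.45 to 0.30, adjusted p = 0.78), nor did CCN1 (0.22, adjusted p = 0.295). CCN2 differed by 0.78, with an interval of -0.02 to 1.58, and did not pass (adjusted p = 0.123). WWTR1 (0.06, adjusted p = 0.628), AMOTL2 (-0.19, adjusted p = 0.162) and AJUBA (-0.23, adjusted p = 0.377) did not pass either, and ANKRD1 had no AsPC-1 response to compare with. That is 1 higher and 2 lower of 9 (33.3%), where 13.8% of all genes were higher and 19% lower (1690 and 2319 genes, against 2230 and 1853 with median-ratio scaling). The share called among the 9 was thus near that of all genes, 32.8%. As labelled only TEAD1 was called (0.47, adjusted p = 0.0182), where 9.83% of all genes were. Without Capan-1 siB3GNT3 replicate 3, 3 were higher and 2 lower, where 41.4% of all genes were called, and CCN2 (1.21, adjusted p = 1.95e-05) and CCN1 (0.35, adjusted p = 0.0216) were among them.

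Other genes of the pathway were read from lists. Their AsPC-1 siB3GNT3 values are from replicates 1 and 2, and as labelled limma called 0 of them, as it called 0 genes in all. Of the Hippo kinases, scaffolds and upstream regulators, 18 of 21 could be tested in AsPC-1: 7 were higher and 4 lower with siB4GALT5 (median -0.02), and 8 were higher and 3 lower with siB3GNT3 (median 0.18). In Capan-1 5 of 19 were higher and 3 lower. The shares called, 61.1%, 61.1% and 42.1%, stood beside 58.2%, 52.9% and 32.9% of all genes, so a call in this list was about as common as elsewhere. LATS1, the other LATS kinase, was higher in each: 0.45 with siB4GALT5 (adjusted p = 0.000312), 0.52 with siB3GNT3 in AsPC-1 (adjusted p = 0.000335) and 0.50 in Capan-1 (adjusted p = 0.00552). SAV1, the scaffold of STK3 and STK4, was also higher in each, by 0.86, 0.52 and 0.38 (adjusted p = 1.19e-05, 0.000625 and 0.00969). STK4 itself went the other way in AsPC-1, by -0.18 with siB4GALT5 (adjusted p = 0.0359) and -0.46 with siB3GNT3 (adjusted p = 0.000667). It was not called in Capan-1 (-0.05, adjusted p = 0.591). MOB1A was lower with siB4GALT5 (-0.59, adjusted p = 0.00368) and did not pass with siB3GNT3 in AsPC-1 (-0.37, adjusted p = 0.0535). FRMD6, an upstream activator, was 1.02 higher with siB4GALT5, from a mean of 7.34 to 15.9 FPKM (adjusted p = 1.96e-06). WWC1 (KIBRA), which activates LATS kinases, was lower with siB4GALT5 (-0.61, adjusted p = 0.000167) and higher with siB3GNT3 in AsPC-1 (0.29, adjusted p = 0.0192) and Capan-1 (0.34, adjusted p = 0.0102). MAP4K4, a kinase that acts beside STK3 and STK4, was higher with siB3GNT3 in AsPC-1 (0.47) and lower in Capan-1 (-0.73), an interaction of -1.21 (adjusted p = 2.11e-06).

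Relatives of TEAD1 and their cofactors were read in the same way. Of 6 other TEAD and vestigial-like genes 4 could be tested in AsPC-1 and 4 in Capan-1. The shares called were 75% with siB4GALT5, 25% with siB3GNT3 in AsPC-1 and 25% in Capan-1. Over all genes the shares were 58.2%, 52.9% and 32.9%. With siB4GALT5 TEAD4 (0.80, adjusted p = 1.12e-05) and TEAD3 (0.41, adjusted p = 0.000424) were higher, and VGLL4, which competes with YAP for TEAD factors, was lower (-0.60, adjusted p = 8.83e-05). With siB3GNT3 in AsPC-1 VGLL4 was higher (0.42, adjusted p = 0.00175), so that it differed between both knockdowns by -1.03 (adjusted p = 2.02e-05). In Capan-1 TEAD3 was higher (0.31, adjusted p = 0.0178).

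Of 16 other genes known as YAP targets 13 were tested in AsPC-1 and 14 in Capan-1. With siB4GALT5 3 of 13 were higher and 1 lower (median 0.03), with siB3GNT3 in AsPC-1 4 of 13 were higher and 1 lower (median -0.04), and in Capan-1 5 of 14 were higher and 3 lower (median 0.10). The shares called were 30.8%, 38.5% and 57.1%, against 58.2%, 52.9% and 32.9% of all genes. FJX1, a secreted regulator related to four-jointed of the fly, was higher with siB4GALT5 (0.47, adjusted p = 0.000557), did not pass with siB3GNT3 in AsPC-1 (-0.18, adjusted p = 0.0898) and differed between both knockdowns by 0.66 (adjusted p = 0.000392). F3, which encodes tissue factor, was lower in each (-0.45, -0.95 and -0.50), and NT5E was higher in each (0.38, 0.76 and 0.29). In Capan-1 CCDC80 (0.73, adjusted p = 0.000362) and NUAK2 (0.74, adjusted p = 0.00221) were among the genes higher with siB3GNT3. IGFBP3, an IGF-binding protein, was higher with siB4GALT5 (0.32) and with siB3GNT3 in AsPC-1 (1.31) and lower in Capan-1 (-0.56), an interaction of -1.87. Between the siNC groups 6 of the 13 that reached 1 FPKM in both lines were higher in Capan-1 and 7 lower, among them TGFB2 (3.14) and ASAP1 (-2.08). Over all genes that reached it in both lines 82.4% were called.

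Genes of serum response factor and actin, which share several targets with YAP, were read beside them. Of 10 tested in AsPC-1 2 were higher and 5 lower with siB4GALT5, and 1 was higher and 4 lower with siB3GNT3, both with a median of -0.12. The shares called, 70% and 50%, stood beside 58.2% and 52.9% of all genes. ACTB was 0.54 higher with siB4GALT5, whereas FLNA, an actin crosslinker, was lower with siB4GALT5 (-0.33) and siB3GNT3 (-0.79). Between the siNC groups 9 of the 10 that reached 1 FPKM in both lines were higher in Capan-1 and 1 lower (median 0.52). TPM1 (4.20) was among the 9. Of all 10020 such genes 4246 were higher and 4009 lower, which is 82.4% called in either direction. With siNC ACTA2, MYL9 and TAGLN reached 1 FPKM in Capan-1 alone and are left out of the 10. Immediate early genes, a class to which CCN1 also belongs, were higher in 9 and lower in 1 of 10 in both AsPC-1 knockdowns (medians 1.23 and 1.14), leaving out FOS and FOSB, which stayed under 1 FPKM with siNC. In Capan-1 8 of 11 were higher and 1 lower (median 0.60), a share called of 81.8% against 32.9% of all genes. ATF3, a stress-induced factor, was higher in each (2.46, 2.32 and 1.61). FOSL1 was the gene of that list that was lower, and it was lower in each (-0.13, -0.67 and -1.06). CCN1 itself passed with siB4GALT5 and, with all Capan-1 libraries, did not pass with siB3GNT3 in either line. Over all genes tested the medians were 0.06, 0.07 and 0.02 in these comparisons.

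**Figure D5:**
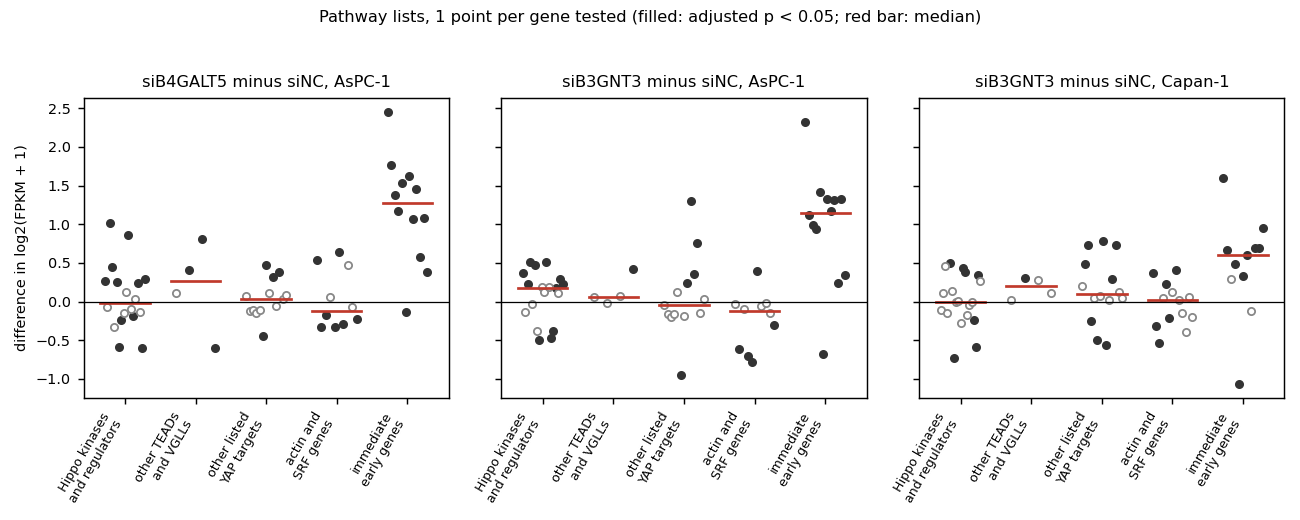
Log2 differences from siNC of the tested genes of each list in the 3 knockdown comparisons, 1 point per gene, with the list's median as a bar. The immediate early genes lie mostly above 0 (medians 1.28, 1.14 and 0.60, with FOS and FOSB included), while the Hippo regulators and the other YAP targets scatter on both sides of 0.

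The genes most like CCN1 and LATS2 across 14 libraries were found by Pearson correlation of log2(FPKM + 1) over 8720 genes averaging at least 5 FPKM in some group, after subtracting the siNC mean of the line. These values describe libraries that share groups and a table, so they carry no p. CCN1 was followed most closely by NORAD (0.979), ZDHHC18 (0.970), TES (0.966), ST3GAL1 (0.960) and ITGA5 (0.959). LATS2 was followed by WARS1 (0.992), SNHG11 (0.989), PBX2 (0.989), FAM126B (0.988) and SIAH2 (0.988).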

How the data were processed

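The authors deposited 1 table of FPKM, gene by library, for 15 bulk RNA-seq libraries in 5 groups of 3. Per the submitters' processing notes Bowtie2, RSEM 1.3.1, DESeq2 1.4.5 and GRCh38 were used, with no role named. Which annotation was used is not given in the sources read here. Depth is unknown from FPKM, so no counting interval is given, and the number of libraries limits precision.

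FPKM were used as deposited. Values were taken as log2(FPKM + 1), which understates the change of low genes, and genes with at least 1 FPKM in at least 3 libraries of the fit were tested with limma 3.58.1 (R 4.3.3, intensity trend, group means), with Benjamini-Hochberg adjustment and a threshold of 0.05. The AsPC-1 fit held 8 libraries and the Capan-1 fit 6. The siNC comparison held the 6 siNC libraries, and the interaction held 14. The library labelled AsPC-1 siB3GNT3 replicate 3 was set apart, and fits of all libraries as labelled were an alternative. Values after SE are standard errors, intervals are 95% intervals from limma, and ratios are of mean FPKM. The procedure was tested on simulated data.

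The members and lists were chosen with earlier results of these data known. Described were all 10 members and both targets, up to 4 called genes with the smallest p from each list and comparison, and the 5 genes most like CCN1 and LATS2. Some genes that the rule allows are left out. Start-site windows and gene positions are from RefSeq (GRCh38.p14), matched by symbol, and GGAATG was searched on both strands. Alternatives were a pseudocount of 0.1, no filter, a filter of 5 FPKM, no trend, rescaling to a common sum, scaling by median ratios, the replicate number as a block, other sets of groups, a 2-fold minimum and each library left out.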

Additional observations from a re-analysis of the deposited data

Results flagged for a closer look

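For 3 genes the effect of siB3GNT3 differed between AsPC-1 and Capan-1 by limma's interaction test with Benjamini-Hochberg adjustment over all genes. ANKRD1 was too low in AsPC-1 to be compared, and 3 of the other 9 (33.3%) is near the share of all genes called, 32.8%. The response of AXL was lower in Capan-1 than in AsPC-1 (-0.53, adjusted p = 0.00208), with 49.9 and 52.2 FPKM above all AsPC-1 siNC libraries and 129 to 151 FPKM overlapping Capan-1 siNC. The response of YAP1 was also lower in Capan-1 (-0.35, adjusted p = 0.00509), and that of TEAD1 was higher (0.44, adjusted p = 0.00817). With all libraries as labelled, YAP1 (adjusted p = 0.303) and AXL (adjusted p = 0.0709) did not pass and TEAD1 did (adjusted p = 0.0182).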

How the results depend on the processing

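Over the alternatives to the members' differences, 923 values kept their direction and side of the threshold, 65 lost the call, 12 gained it and 12 changed sign; the cause was not tested. Asking for a 2-fold change left 441, 435, 205, 209, 3064 and 410 genes (siB4GALT5, siB3GNT3 in AsPC-1, both knockdowns compared, siB3GNT3 in Capan-1, siNC between lines, interaction), and 2, 0, 1, 0, 5 and 0 members. With all libraries as labelled 0, 1716 and 1204 genes were called for siB3GNT3 in AsPC-1, both knockdowns compared and the interaction, and 5, 0 and 1 members for siB4GALT5, siB3GNT3 and the interaction. Leaving out 1 library gave 2134 to 4865 genes for both knockdowns compared, the lowest without AsPC-1 siB3GNT3 replicate 1 (2190 without replicate 2), where the lone library is assumed to vary like the other groups. For Capan-1 it gave 2069 to 5715 genes and 2 to 6 members, 2069, 2083 and 2112 without siNC replicates 1, 2 and 3 and 5715 without siB3GNT3 replicate 3. The interaction had 3 to 5 members.

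Values that changed sign were TEAD1 with siB3GNT3 in AsPC-1 (0.0622 with a common sum, -0.0461 to 0.0105 with a library left out), CCN1 there (0.00998 with a common sum), YAP1 in Capan-1 (-0.0108 with median-ratio scaling, -0.0269 to 0.0501 with a library left out) and CCN2 in Capan-1 (-0.0321 to 0.68 with a library left out). In the interaction they were WWTR1 (-0.0026 as labelled) and LATS2 (0.00829 with median-ratio scaling, 0.23 as labelled, -0.23 to 0.0849 with a library left out). None of these was called before or after except CCN2, which passed without Capan-1 siB3GNT3 replicate 3.

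Replicate numbers are shared by the groups, but the deviations of the 10 same-numbered pairs correlated at -0.06 to 0.06. Some library names carry numbers that differ from the replicate numbers, in AsPC-1 and for Capan-1 siB3GNT3 replicate 3. Pairing by those names was not examined, so a pairing of cultures is not excluded. With the replicate block 6285, 5470, 3623, 3311, 9831 and 3694 genes and 8, 5, 6, 2, 9 and 3 members were called, in the order above, against 6271, 5697, 3789, 3786, 9891 and 4009 genes without it. WWTR1 with siB3GNT3 in AsPC-1 (-0.17, adjusted p = 0.101) and LATS2 between lines (adjusted p = 0.0585) lost their call under it. Depth could not be read from FPKM, so what it limits is unknown.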

Other observations

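In the interaction of line and B3GNT3 knockdown, where 32.9% of all genes that reached 1 FPKM in both lines were called, 5 of 11 such immediate early genes had a lower response in Capan-1 and 0 a higher one. JUN was higher in AsPC-1 by 1.32 and was not called in Capan-1 (-0.13), an interaction of -1.45. As labelled, 0 of the immediate early genes were called there. Of the Hippo regulators 2 of 17 had a higher and 3 a lower response, a share near that of all genes. Among them were TAOK3 (-0.70, adjusted p = 0.00467), a kinase upstream of STK3 and STK4, and STK4 itself (0.41, adjusted p = 0.00447). TAOK3 was lower in Capan-1 (-0.59) and not called in AsPC-1 (0.11). STK4 was lower in AsPC-1 (-0.46) and not called in Capan-1 (-0.05), so its positive interaction was no rise in Capan-1. Among the control libraries MOB1A, the LATS cofactor, was lower in Capan-1 (-1.35, adjusted p = 1.11e-09), with 42.3 to 46.1 FPKM in AsPC-1 and 16.4 to 16.9 FPKM in Capan-1.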
